A study of Mus musculus with 6 samples.

Results

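The immunoglobulin kappa light-chain locus was described by all chromatin accessibility peaks that overlap chromosome 6, positions 67500000 to 70760000 (mouse build mm10). There were 310 such peaks of 97124 in the study, and 299 of them overlapped the annotated Igk gene, which runs from 67555636 to 70726754. Members were taken by position alone, in a choice made with earlier results of these data known. They were grouped by peak centre into 7 variable steps of 500 kb from 67500000 on, the last of which is short (170 kb) and ends at 70670000, and a part of 90 kb, from 70670000 to 70760000, with the J segments, the constant segment and the enhancers. The rule's border places 4 V segments, Igkv3-4, Igkv3-3, Igkv3-2 and Igkv3-1, in that last part.

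The assay was ATAC-seq, where a transposase that can reach only open chromatin cuts DNA and adds adapters, and the cells were B-cells from the bone marrow of PEtg mice. The 2 groups were quiescent cells, with high H2B-GFP (n = 3), and proliferating cells, with low H2B-GFP (n = 3). H2B-GFP is a fluorescent histone that is diluted at each division, so a cell that keeps much of it has divided little. Both groups carry the PEtg transgene and the H2B-GFP label. The labels name no promoter for either, no age, and no animals without the transgene, and they do not say that the samples came from separate mice or cultures, so each p-value reflects only the variation among the 6 samples, part of which may be technical.

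A light chain is made when recombination joins 1 of many V segments to 1 of the J segments next to the constant segment, Igkc. This takes place mainly in small pre-B cells after they stop dividing, when the RAG recombinase acts on open J and V segments. An intronic enhancer between the J segments and Igkc, a 3′ enhancer and a distal enhancer beyond Igkc drive germline transcription, recombination and later light-chain expression. V segments are named by family and by their order along the locus, with the lowest numbers nearest the J segments, and many promoters of V segments carry an octamer bound by Oct factors and their B-cell coactivator.

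No genome sequence was used here, and the RefSeq promoter table (GRCm38.p6, 250 bases before to 50 after a gene's start) gave windows for 5 non-coding genes in the interval, of which 2 lay at least partly under a member. The first is shown because it lies wholly under a peak and holds the octamer, in capitals, from base 182. It is the window of LOC108169192 at chr6:68880650-68880949 (minus strand), a long non-coding RNA gene in the variable part.
LOC108169192: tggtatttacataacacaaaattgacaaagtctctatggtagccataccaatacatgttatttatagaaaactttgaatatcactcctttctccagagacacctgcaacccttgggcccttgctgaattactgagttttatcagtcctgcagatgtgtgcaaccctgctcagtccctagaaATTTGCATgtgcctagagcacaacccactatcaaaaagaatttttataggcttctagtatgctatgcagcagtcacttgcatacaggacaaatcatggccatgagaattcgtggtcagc
The second is shown because its window lies between the last V segment and the first J segment. It belongs to Gm46961, a long non-coding RNA gene, at chr6:70718827-70719126 (minus strand), and capitals mark its 240 bases under a peak.
Gm46961: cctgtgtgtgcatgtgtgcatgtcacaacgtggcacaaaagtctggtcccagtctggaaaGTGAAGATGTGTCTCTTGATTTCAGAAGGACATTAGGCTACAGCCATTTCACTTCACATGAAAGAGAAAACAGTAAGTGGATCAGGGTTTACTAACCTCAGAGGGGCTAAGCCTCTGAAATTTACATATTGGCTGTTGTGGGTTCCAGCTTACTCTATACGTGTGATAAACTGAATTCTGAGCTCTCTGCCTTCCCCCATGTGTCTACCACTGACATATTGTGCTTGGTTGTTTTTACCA
Of all 32851 promoter windows in the table, 570 (1.74%) held the letters ATTTGCAT on either strand, and of the 5 in the interval 1 did. The peak over the LOC108169192 window (68880543 to 68881401) had a signal of 324, 343 and 276 in quiescent samples 1 to 3 and of 86.3, 541 and 345 in proliferating samples 1 to 3. Its groups overlapped, with proliferating sample 1 lowest and proliferating sample 2 highest (log2 fold change 0.31 ± 0.55 SE, limma adjusted p = 0.780). The peak over the Gm46961 window (70718809 to 70719066) was weak, at 22, 30.5 and 27.4 in quiescent and 17, 48.9 and 53.1 in proliferating samples (-0.41 ± 0.46, adjusted p = 0.628).

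Signal is the authors' scaled read value per peak, and each fold change is a difference of mean log2(signal + 1), quiescent minus proliferating, which understates the change of weak peaks. A peak was called when its adjusted p in limma, over the 87411 tested peaks of the genome, was under 0.05. Deposited totals were nearly equal, but the reads in peaks recovered from the values numbered 8052340 in proliferating sample 1, the least precise, and up to 48830880 in proliferating sample 3. In these bulk samples, less open DNA per cell, fewer cells with an open locus and fewer copies of the DNA cannot be told apart. The B-cell markers Cd79a, Cd79b, Pax5 and Ebf1 had peaks, the strongest of each between the 94.9th and 99.0th percentile of all peaks, tested or not. Many other-cell markers had peaks about as strong. Itgam and Klrb1c were at the 99.7th and 99.9th percentile, and Prdm1, Tfrc, Irf4, Xbp1 and Sdc1 at 98.8, 97.2, 96.4, 95.2 and 95.1. Cd3d, Csf3r and Tnfrsf17 were just below, at 94.5, 92.7 and 92.5. Peaks were assigned to the nearest gene within 100 kb, and those of Prdm1, Sdc1 and Csf3r lay 77813, 50529 and 93370 bp away. The rest were weaker, down to S100a8, Cd8a and Nkg7 at 15.1, 13.5 and 13.5.

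Kappa peaks fell in quiescent cells more often than they rose. Of 307 tested members, 37 were called lower and 6 higher, or 12.1% and 1.95%, against 2.72% and 4.01% of all tested peaks. The median log2 fold change of the members was -0.22, beside -0.01 over all tested peaks. With the replicate number as a block, 76 members were lower and 19 higher, against 8.14% and 10.2% of all peaks. Quiescent and proliferating samples did not overlap at 78 members that were lower and 26 that were higher, where the shares over all tested peaks were 14.9% and 15.4%. In limma-voom on the recovered reads, scaling to totals gave 67 lower and 3 higher (9.89% and 5.01% of all peaks), and median-of-ratios scaling gave 37 and 12 (3.99% and 9.98%). Under the totals the median of all tested peaks itself moved to -0.26, and the kappa median lay -0.20 from it.

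Leaving out some single libraries removed most calls, over the genome as at kappa. Without quiescent sample 3 limma called no member (60 lower at an unadjusted p under 0.05, and 34 lower and 1 higher in limma-voom on the totals), and without quiescent sample 2, proliferating sample 2 or proliferating sample 3 it called 4, 8 and 12 lower. Over all tested peaks these limma fits called 0, 161, 790 and 1160 in the same order, both directions together. The full fit called 2375 lower and 3501 higher. At all 37 peaks called lower every quiescent sample was below every proliferating sample. Leaving out a sample therefore could not turn their sign. The kappa median was -0.06 without proliferating sample 2, -0.10 without quiescent sample 1 and -0.40 without proliferating sample 1. Proliferating sample 2 lay highest over the members, with a median of 0.49 above the peak means on the log2 scale, and quiescent sample 1 and proliferating sample 1 lay lowest at -0.27 and -0.24. By numbered pair the median difference was -0.06, -0.45 and -0.17.

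The peaks called lower had fold changes from -3.21 to -0.57 (median -1.44), and in 30 of the 37 the change was at least 1 on the log2 scale. In each of them the signal was lower in 3 of 3 numbered pairs, as it must be where the groups do not overlap. Their mean signal ran from 23.8 to 2156. The 6 peaks called higher were weaker, from 22.1 to 190.1, with fold changes from 1.25 to 3.04. The neighbouring stretches had medians near that of the locus. In the 1 Mb before the interval 4 of 48 tested peaks were lower and 1 higher (8.33% lower, median -0.22), and in the 1 Mb after it 2 of 67 were lower and 1 higher (2.99% lower, median -0.20). With the block these counts were 8 and 3 before (16.7% lower) and 8 and 5 after (11.9% lower), beside 24.8% lower at kappa. By the groups not overlapping, the share of lower peaks was as high in the neighbours as at kappa, at 29.2% before and 26.9% after against 25.4%. Relative to all peaks their medians on the totals were -0.14 and -0.09, beside -0.20 at kappa, and in limma on the signal they moved to -0.11 before without quiescent sample 3 and -0.09 after without proliferating sample 3. The immunoglobulin heavy-chain interval went the other way, with 4 of 247 tested peaks lower and 16 higher and a median of 0.34, as did the lambda light-chain interval, with 0 of 23 lower and 2 higher and a median of 0.52. With the block the counts were 8 lower and 45 higher at the heavy chain and 2 and 7 at lambda. On the totals the 2 medians were 0.09 and 0.18, which lay 0.34 and 0.43 above the median of all peaks, and without quiescent sample 1 the lambda median was 0.23. None of these differences between intervals was tested.

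Without the block, lower calls were most frequent in the first 2 steps, at the far end, and in the part with the J segments. The first step held 17 V segments and 37 peaks, of which 8 of 36 tested were lower and 0 higher (median -0.39). The second step had 12 of 55 lower and 2 higher (median -0.38), so that 20 of the 37 lower peaks lay in these first 2 steps. In the middle, the third step had 3 of 47 lower and 3 higher (median 0.04) and the fourth 2 of 58 lower and 1 higher (median -0.01). The fifth and the sixth step had 2 of 45 and 4 of 40 lower and none higher, with medians of -0.24 and -0.29. The short step had 1 of 7 lower and a median of -0.65, and the part with the J segments, constant segment and enhancers 5 of 19 lower and a median of -0.41.

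**Figure D1:**
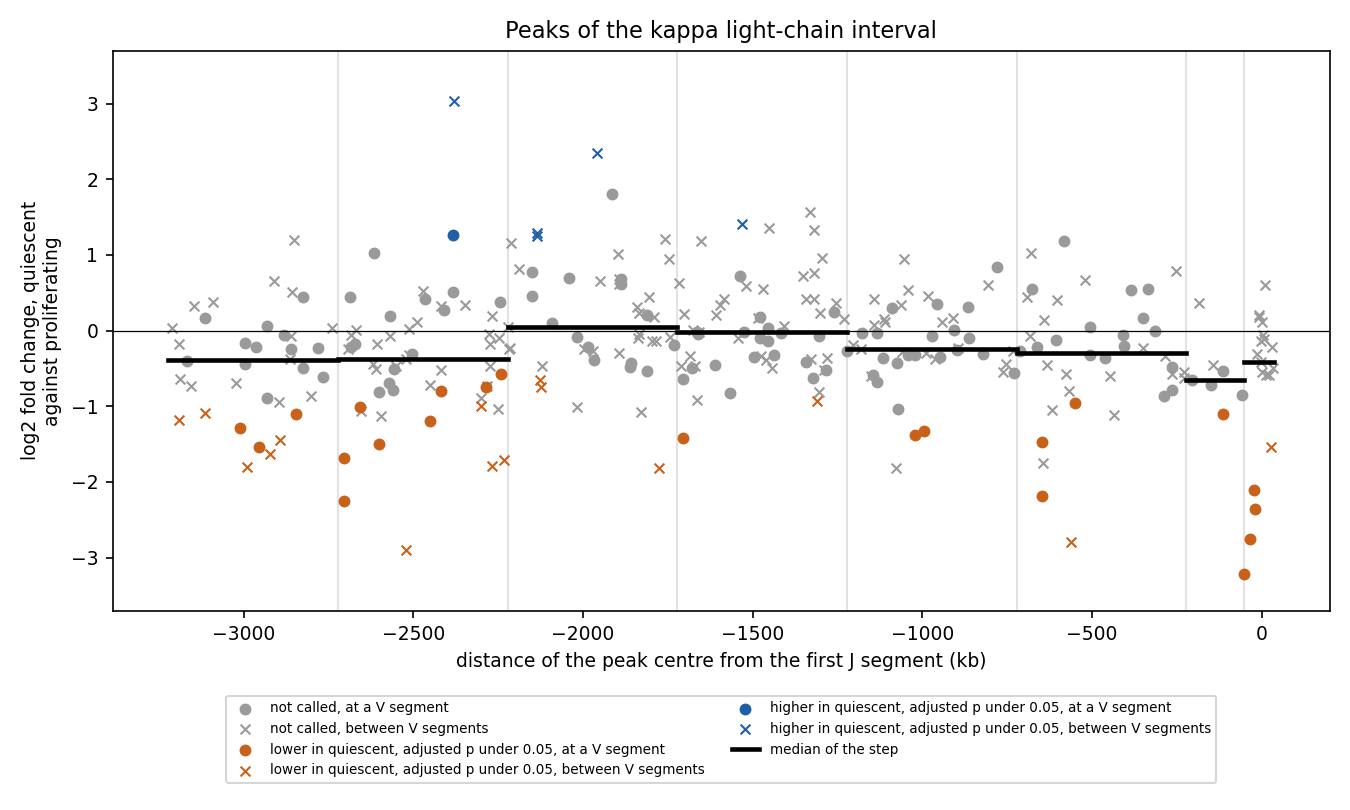
Log2 fold change of each tested kappa peak (y axis) against the distance of its centre from the first J segment in kb (x axis), with filled points for peaks that overlap a V segment and crosses for the rest, colour for the limma call, and black bars for the median of each subdomain. The bars lie near -0.39 at the far end, near 0 in the 2 middle steps, and at -0.65 and -0.41 next to the J segments.

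With the replicate block, the lower and higher counts along the same order were 10 and 0, 19 and 3, 4 and 7, 15 and 6, 7 and 1, 9 and 2, 4 and 0, and 8 and 0. The fourth step thus went from 2 lower to 15 lower and 6 higher. With the block its share of lower peaks was 25.9%, beside 27.8% in the first step and 34.5% in the second. When the borders were moved by 250 kb, the medians ran from -0.44 and -0.35 at the far end through -0.13, -0.01 and -0.10 to -0.22 and -0.48 before the J segments, again lowest toward both ends. Leaving out 1 sample at a time kept the medians of the first 2 steps between -0.55 and -0.26, while those of the middle 2 lay between -0.28 and 0.21 and changed sign. The steps nearer the J segments kept their sign and moved more. The fifth step went to -0.02 without quiescent sample 1 and to -0.07 without proliferating sample 2. Without proliferating sample 2 the sixth was at -0.12, the short step at -0.38 and the part with the J segments at -0.19, and that part was at -0.24 without quiescent sample 1 and -0.26 without proliferating sample 3. Without proliferating sample 1 the sixth was at -0.47, and without quiescent sample 2 at -0.48. On the totals the third step was at -0.17, which was 0.09 above the median of all peaks.

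Samples differed by more than the groups in the middle of the locus. In the third step the median deviation from the peak mean was -0.18, 0.27 and 0.08 in quiescent samples 1 to 3 and -0.43, 0.22 and 0.02 in proliferating samples 1 to 3. In the fourth step it was -0.32, 0.23 and 0.10 against -0.42, 0.51 and 0.05. Sample 1 of either group was low there and the groups overlapped. In 3 steps the sample medians did not overlap between groups. In the first the quiescent samples were at -0.39, -0.17 and -0.14 and the proliferating samples at -0.10, 0.48 and 0.27, a narrow separation next to the spread within either group. In the second they were at -0.18, -0.15 and -0.31 against -0.06, 0.51 and 0.22. The short last step was at -0.32, -0.25 and -0.27 against -0.02, 0.80 and 0.26. In the part with the J segments and enhancers quiescent sample 1 stood alone at -0.75, and the others overlapped.

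**Figure D2:**
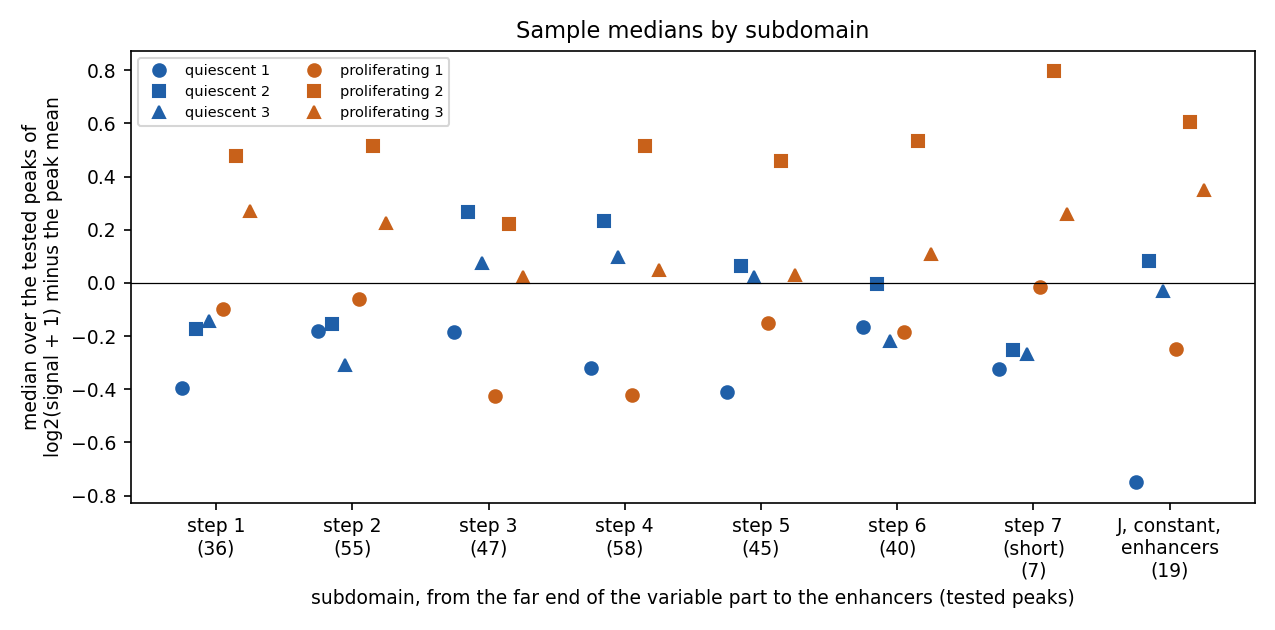
For each subdomain (x axis, with the number of tested peaks), the median over its peaks of log2(signal + 1) minus the peak's mean over the 6 samples (y axis), 1 point per sample, blue for quiescent and orange for proliferating, with the marker shape for the replicate number. Proliferating sample 2 is highest in every subdomain but the third step, and quiescent samples lie below all proliferating samples in the first, second and short last steps.

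Among strong peaks most fold changes lay below 0. In the strongest 77 members (mean signal 405 to 3524), 68 of 77 peaks had a fold change below 0, or 88.3%, where 51.8% of all 12890 tested peaks in that range of signal did. The median there was -0.35, and 13 were called lower and 0 higher, beside 4.77% and 6.33% of all peaks in the range. With the block 34 of the 77 were lower and 2 higher. Under each scaling the median of these 77 stayed below 0, but its size and the sign of some peaks changed. With median-of-ratios scaling of the recovered reads 45 of the 77 (58.4%) were below 0 with a median of -0.08, beside 17.6% and a median of 0.30 for all peaks in the range, so that the members lay -0.38 from them, against -0.34 as reported and -0.40 on the totals. In the weakest 77 (20.5 to 57.2) 39 of 77 were below 0, 5 were lower and 4 higher (10 and 8 with the block), and the median was -0.06, with the background at 1.63% lower and 1.81% higher. By numbered pair the median difference among the strongest was -0.20, -0.54 and -0.34.

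**Figure D3:**
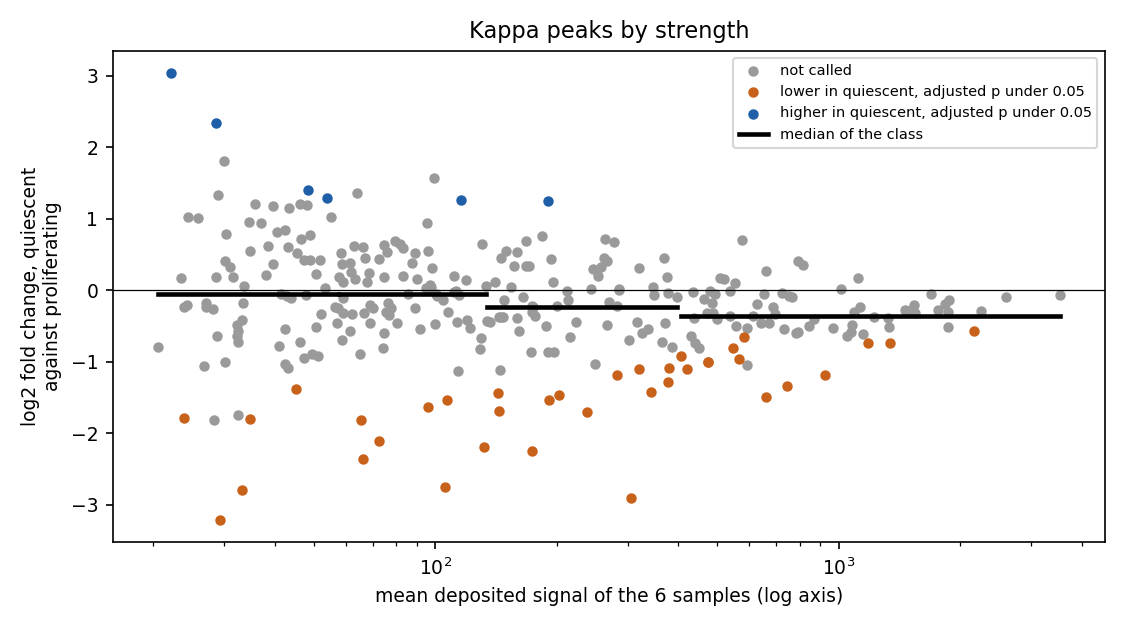
Log2 fold change (y axis) of each tested kappa peak against its mean deposited signal over the 6 samples (x axis, log scale), with colour for the limma call and black bars for the medians of the members split into 4 classes of equal size by signal. Points in the strongest class lie mostly below 0 with a median of -0.35, and the 6 called rises are all below a signal of 191.

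The annotation held 162 V segments, 102 functional and 60 pseudogenes. A peak overlapped 86 of the functional segments (84.3%) and 16 of the pseudogenes (26.7%). Of the 127 peaks at a V segment, 22 were lower and 1 higher, with a median of -0.31. Of the 180 tested peaks between segments, 15 were lower and 5 higher, with a median of -0.13. The block gave 37 and 4 at segments and 39 and 15 between them. Peaks at a segment were also stronger and wider, with a median signal of 215 against 93.3 and a median width of 606 against 453 bp, and the difference between the classes was not tested. Of 107 peaks at a functional segment 18 were lower and 0 higher, and of 20 at a pseudogene 4 were lower and 1 higher (with the block 30 and 3, and 7 and 1). That 1 rise was at the pseudogene Igkv11-106 (68339668 to 68340383), from 69.9 ± 25.9 in proliferating to 162 ± 25.8 in quiescent cells (1.27 ± 0.32, adjusted p = 0.0467), singled out after its value was seen.

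Families of V segments differed in their counts, in a split that was made after the values were seen. All 9 peaks at Igkv3 segments had a fold change below 0, and 5 were called lower, or 8 with the block (median -1.10). These 9 all lay in the last variable step or in the part with the J segments, so family and position cannot be told apart. Of 15 peaks at Igkv1 segments 5 were lower (median -0.48), at Igkv1-131, Igkv1-122 with a pair of peaks, Igkv1-117 and Igkv1-110. Of 8 at Igkv14 segments 3 were lower (median -0.69), all at pseudogenes, Igkv14-134-1, Igkv14-126-1 and Igkv14-118-2. The largest family, Igkv4, had 38 peaks with 2 lower, Igkv4-80 and Igkv4-50, and 10 with the block (median -0.32). Of 10 peaks at Igkv12 segments limma called 0, also with the block (2 at an unadjusted p under 0.05), and their median was 0.41.

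The deepest falls at V segments were at the 4 nearest to the J segments, each of which encodes the variable domain of a light chain. At Igkv3-4 the peak (70671627 to 70671827) had a signal of 4.79, 10.2 and 1.25 in quiescent samples and 26.5, 83.9 and 48.8 in proliferating samples. These quiescent values rest on 5, 6 and 1 recovered reads. All quiescent samples were below all proliferating ones, with a fold change of -3.21 ± 0.68 (adjusted p = 0.0282). The peak at Igkv3-3 (70686669 to 70686994) read 19.9, 40.4 and 19.3 in quiescent and 118, 273 and 164 in proliferating samples, again apart (-2.75 ± 0.39, adjusted p = 0.00959). Igkv3-2 (70698220 to 70698555) was at 24.2, 19 and 32.9 against 68.9, 184 and 106 (-2.11 ± 0.39, adjusted p = 0.0185). The last V segment before the J segments, Igkv3-1 (70703346 to 70703661), was at 18.9, 20.7 and 19.5 against 66.0, 169 and 103 (-2.36 ± 0.36, adjusted p = 0.0114). Each of these peaks covered the end of its segment that faces away from the J segments and little of the segment itself. Proliferating sample 2 was the highest sample at all 4.

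The next Igkv3 segments outward changed less. The peak at Igkv3-5 (70662919 to 70663393) was at 140.4, 121 and 154 in quiescent and 207, 330.2 and 229.8 in proliferating samples, apart but not called (-0.86 ± 0.22, adjusted p = 0.0533, with the block 0.0159). At Igkv3-7 (70606954 to 70607618), the strongest peak of the short step and its largest fall, the values were 311, 236 and 253 against 581, 649 and 490.4 (-1.10 ± 0.18, adjusted p = 0.0128). A second, weak peak at Igkv3-7 overlapped between groups (-0.54 ± 0.49, adjusted p = 0.551). Igkv3-10 and Igkv3-12 were apart without a call, at -0.72 ± 0.24 (adjusted p = 0.10, with the block 0.00895) and -0.65 ± 0.26 (adjusted p = 0.164, with the block 0.0369).

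Between the last V segment and the first J segment, the strongest peak of the part (70709090 to 70710246) ended 12.3 kb before Igkj1. It read 1534, 1956 and 1496 in quiescent and 1601, 2425 and 2174 in proliferating samples, and the groups overlapped (-0.30 ± 0.17, adjusted p = 0.319). This stretch is known to hold elements that bind the architectural protein CTCF and restrain recombination of the nearest V segments, and no peak is assigned to one of them here. The next peaks toward the J segments were weaker and overlapped as well. They were at 70713150 (0.19 ± 0.44, adjusted p = 0.835), 70713926 (0.21 ± 0.24, adjusted p = 0.647) and 70720283 (-0.13 ± 0.33, adjusted p = 0.845), with 29.7 ± 7.69, 267 ± 14.4 and 102 ± 48.3 in quiescent and 27.5 ± 12, 239 ± 71.3 and 106 ± 18.9 in proliferating cells.

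The J segments run from 70722562 to 70723923, and the peak over Igkj1, the first (70722174 to 70722654), was at 39.6, 100.4 and 88.5 in quiescent and 71.9, 139.6 and 111 in proliferating samples. Its groups overlapped, while each quiescent sample was below its numbered partner (-0.55 ± 0.39, adjusted p = 0.429). Behind the last J segment a peak at 70724260 was flat in the means, at 143 ± 17.3 and 139 ± 48.2 (0.11 ± 0.29, adjusted p = 0.856).

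The peak at the place of the intronic enhancer (70725192 to 70726539) covered the end of the intron and the start of Igkc, which lies at 70726435 to 70726754. It was at 369, 797 and 771 in quiescent and 418, 876 and 689 in proliferating samples. Sample 1 of either group was low and the others were alike in range, so the spread within a group was far larger than the difference between groups (-0.05 ± 0.34, adjusted p = 0.946). Past Igkc, peaks at 70727999 (-0.11 ± 0.50, adjusted p = 0.920) and 70730829 (0.61 ± 0.37, adjusted p = 0.348) were weak and overlapped.

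A peak at the place of the 3′ enhancer (70735101 to 70736262) began 8.35 kb past the end of Igkc. Quiescent samples 1 to 3 were at 364, 803 and 718 and proliferating samples 1 to 3 at 579, 1162 and 1070. The groups overlapped, each quiescent sample being lower than its partner, and the fold change of -0.59 ± 0.34 was not called without the block (adjusted p = 0.320) and was called with it (0.00549). At the place of the distal enhancer (70743443 to 70744652), 16.7 kb past Igkc, the values were 464, 1053 and 1121 against 909.9, 1532 and 1330. There too the groups overlapped and 3 of 3 pairs were lower (-0.59 ± 0.33, adjusted p = 0.312, with the block 0.0137). The enhancers are named by position relative to Igkc, with no sequence to check them.

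Beyond them, a peak 22.9 kb past Igkc (70749633 to 70750207, within the non-coding gene Gm30211) fell and its groups were apart. It read 62.1, 132 and 99.6 in quiescent and 179.9, 345 and 327 in proliferating samples (-1.54 ± 0.33, adjusted p = 0.0307). It was the only peak of the part away from a V segment that limma called without the block. The last 2 peaks of the part were at 161 ± 45.9 against 186 ± 45.7 (70751933, -0.21 ± 0.28, adjusted p = 0.686) and at 893, 619 and 606 against 1014, 918 and 1015 (70753549 to 70755384). The latter was apart with a fold change of -0.50 ± 0.17 (adjusted p = 0.111, with the block 0.0224).

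**Figure D4:**
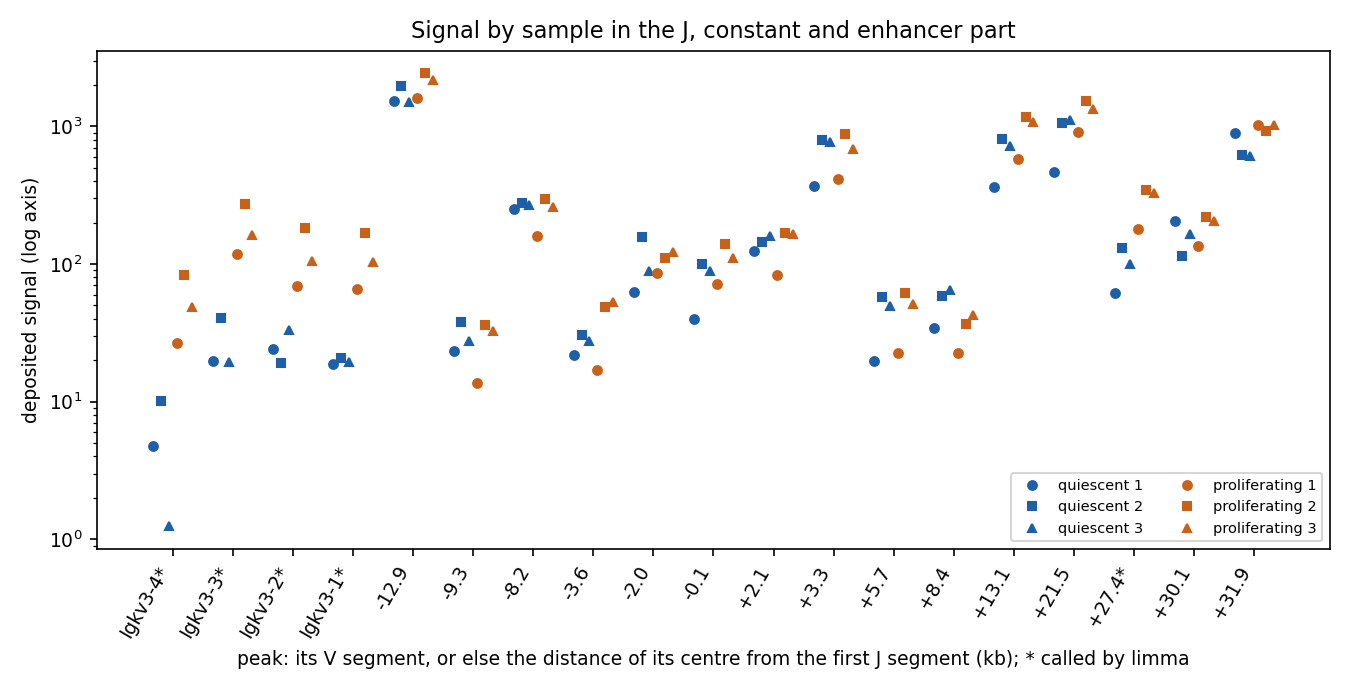
Deposited signal (y axis, log scale) of the 19 peaks of the J, constant and enhancer part in each of the 6 samples, blue for quiescent and orange for proliferating, with peaks in order along the chromosome, named by V segment or by the distance of the centre from the first J segment in kb. The 4 Igkv3 peaks and the peak at +27.4 kb have all quiescent samples below all proliferating samples, while at +3.3 kb, the intronic enhancer, the colours overlap and sample 1 of both groups is low.

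Because sample 1 was low across the enhancers in both groups, each peak was also set against the intronic enhancer peak of its own sample, a comparison chosen after the values were seen. For the 3′ enhancer the log2 ratio was -0.02, 0.01 and -0.10 in quiescent and 0.47, 0.41 and 0.63 in proliferating samples. The distal enhancer gave 0.33, 0.40 and 0.54 against 1.12, 0.81 and 0.95. For the peak over Igkj1 the ratio was -3.19, -2.98 and -3.11 against -2.52, -2.64 and -2.62. In these 3 peaks no quiescent sample reached a proliferating one, and the mean differences were -0.54, -0.53 and -0.49. In an exact permutation test, two-sided, each had p = 0.1, the smallest that 3 against 3 samples allow, and an adjusted p of 0.2 over the 18 peaks compared. Their common reference is a single peak, so these ratios are not independent. Of the 18 peaks, 8 had all quiescent ratios below the proliferating ones, 1 (70730829) had them above, and 9 overlapped. Among the 8, the 4 Igkv3 peaks and the peak at 70749633 were already apart on the signal itself. The share of all peaks that would be apart by such a ratio was not computed. At 70709090 the ratios overlapped, at 2.05, 1.29 and 0.96 against 1.94, 1.47 and 1.66.

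**Figure D5:**
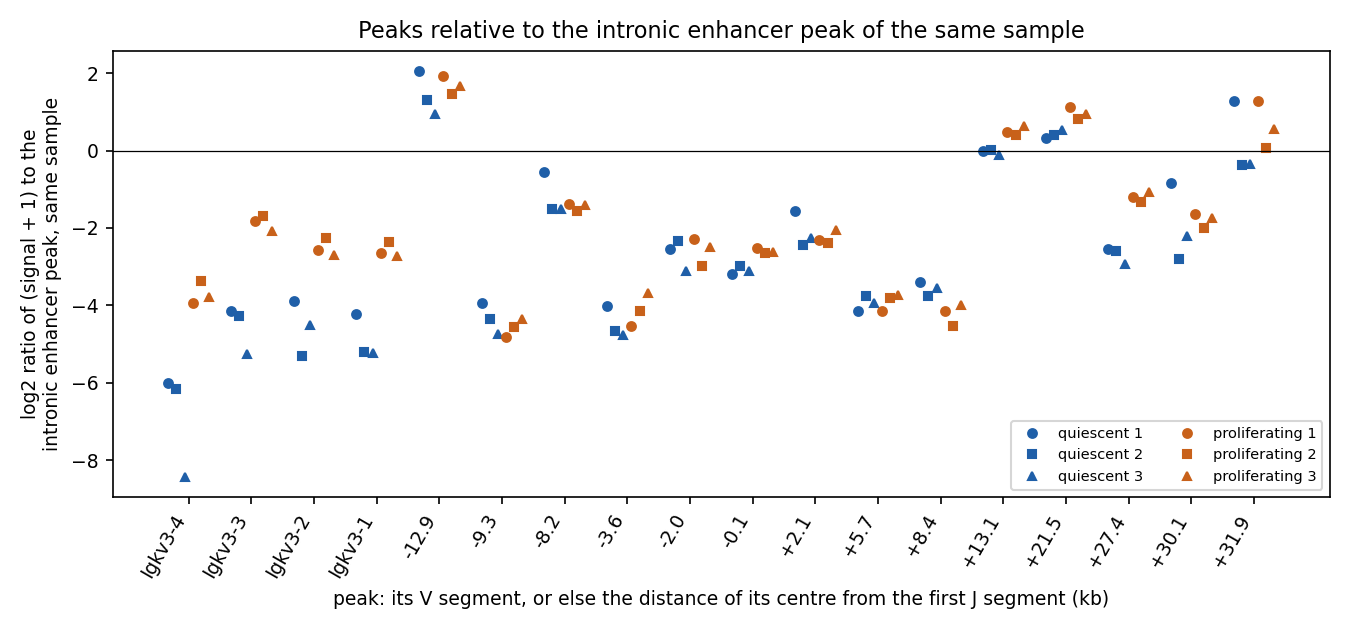
Log2 ratio of (signal + 1) to that of the intronic enhancer peak in the same sample (y axis) for the other 18 peaks of the part (x axis, in order along the chromosome), with blue for quiescent, orange for proliferating and marker shape for the replicate number. At +13.1 and +21.5 kb, the 3′ and distal enhancers, quiescent ratios lie between -0.10 and 0.54 and each peak's proliferating ratios lie above its quiescent ones.

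Of single peaks in the variable part, the deepest fall lay between segments in the second step, 19211 bp from Igkv2-112 (68200388 to 68200770). Its signal was 68.8, 86.2 and 58.4 in quiescent and 464, 689.8 and 467 in proliferating samples (-2.90 ± 0.23, adjusted p = 0.00463), and no quiescent sample came near a proliferating one. In the sixth step a peak 10903 bp from Igkv8-27 (70160524 to 70160906) was at 11.5, 3.39 and 9.97 against 60.6, 68.7 and 45.4 (-2.79 ± 0.48, adjusted p = 0.0154). The first step's deepest fall was weaker in signal (67731194 to 67731457, 5533 bp from Igkv1-133), at 15.6 ± 7.11 against 53.8 ± 8.54 (-1.80 ± 0.40, adjusted p = 0.0334). In the third step the deepest was at 68945717 to 68946105, 5650 bp from Igkv13-84, at 28.7 ± 8.93 against 102 ± 24.9 (-1.82 ± 0.32, adjusted p = 0.0169). At V segments, Igkv4-80 (69016182 to 69016908) fell from 499 ± 108 to 183 ± 20.6 (-1.42 ± 0.20, adjusted p = 0.00903) and Igkv4-50 (69701261 to 69701461) from 65.5 ± 16.1 to 24.9 ± 7.48 (-1.38 ± 0.35, adjusted p = 0.0486), in each case the deepest of its step.

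The rises were few and weak. A peak 851 bp from the pseudogene Igkv11-106 (68340846 to 68341125) had 24.6, 43.8 and 51.9 in quiescent and 1.66, 5.58 and 5.24 in proliferating samples (3.04 ± 0.56, adjusted p = 0.0193). The proliferating values rest on 1, 9 and 15 recovered reads. A peak 4058 bp from Igkv4-91 (68764243 to 68764497) was at 31.4, 62.5 and 49.7 against 4.30, 7.77 and 16 (2.35 ± 0.52, adjusted p = 0.0320). Its call was lost in limma-voom on the totals (1.54, adjusted p = 0.0620). In the fourth step a peak 875 bp from Igkv13-73-1 (69191157 to 69191431) rose from 26.4 ± 7.31 to 70.2 ± 9.25 (1.40 ± 0.30, adjusted p = 0.0297). All quiescent samples were above all proliferating samples at these 3.

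Several of the strongest peaks had small differences. The strongest of all members (70040107 to 70041702, 2410 bp from Igkv8-34) was at 3081, 3681 and 3564 in quiescent and 3187, 3928 and 3703 in proliferating samples and overlapped (-0.07 ± 0.11, adjusted p = 0.771). Overlap was also seen at Igkv9-129 (67839045 to 67840557), the strongest of the first step, with 1646 ± 35.6 against 1728 ± 277 (-0.06 ± 0.13, adjusted p = 0.828). At 68883214 the values were 2495 ± 545 and 2695 ± 754 (-0.09 ± 0.22, adjusted p = 0.832), and at 69661900 they were 2025 ± 242 and 2478 ± 462 (-0.28 ± 0.15, adjusted p = 0.287). The strongest peak of the second step did fall, at the pseudogene Igkv15-101 (68480569 to 68482122), with 1684, 1893 and 1614 against 2505, 2963 and 2277 (-0.57 ± 0.13, adjusted p = 0.0322). That call was lost in limma-voom on the recovered reads (adjusted p = 0.0573 on the totals and 0.527 with median-of-ratios scaling). In the fourth step the strongest (69432029 to 69433197, 5021 bp from Igkv4-59) was apart at 1516 ± 136 against 2207 ± 541 and called with the block alone (-0.52 ± 0.17, adjusted p = 0.0976, with the block 0.00665).

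Peaks at genes whose products act on kappa recombination and transcription were called about as often as peaks in general by limma without the block. Over 30 such genes, 683 peaks were tested, of which 16 were lower and 22 higher (2.34% and 3.22%, beside 2.72% and 4.01% of all tested peaks), or 44 and 82 with the block (6.44% and 12.01%, beside 8.14% and 10.2%). The groups did not overlap at 70 of these peaks that were lower and 149 that were higher (10.2% and 21.8%). Over all tested peaks these shares were 14.9% and 15.4%. The median of the list was 0.15 and turned to -0.08 on the totals, 0.18 above the median of all peaks there. By gene, 6 had only lower calls, 7 only higher calls, 4 both and 13 none. The call with the smallest adjusted p lay in Tcf12, which encodes an E protein that binds kappa enhancers, and rose from 211 ± 35 to 705 ± 53.6 (1.75 ± 0.17, adjusted p = 0.00515). The strongest peaks of Rag1 and Rag2, the recombinase genes, had fold changes of 0.31 (limma adjusted p = 0.26) and 0.15 (adjusted p = 0.65). Those of Irf4 and Irf8, factors of the 3′ enhancer, had 0.18 (adjusted p = 0.43) and -0.23 (adjusted p = 0.19). Among all their peaks, 1 of 7 at Rag1 was called higher and 2 of 35 at Irf8 were called lower. No peak was called at Rag2 or Irf4. Of 134 tested peaks at pre-B receptor and stage genes, 6 were lower and 2 higher (4.48% and 1.49%, median 0.01). The excess of lower calls was not seen with the block, which gave 14 lower and 16 higher, or in the groups not overlapping, with 21 in either direction. On the totals this median was -0.17, 0.09 above that of all peaks. The smallest adjusted p there was at Ms4a1, which encodes CD20, with 1065 ± 76.8 against 2066 ± 325 (-0.95 ± 0.14, adjusted p = 0.0108).

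Marker genes of other cell types had called peaks in both directions. Limma called 2.72% of all tested peaks lower and 4.01% higher, or 8.14% and 10.2% with the block. The shares were 0% and 13.5% for plasma cell, 6.52% and 8.70% for myeloid and 0% and 6.45% for T and NK markers. They were 5.56% and 0% for erythroid and 1.21% and 1.82% for B-cell markers, the latter below those of all peaks. Plasma cell markers had 0 of 74 tested peaks lower and 10 higher (limma with the block gave 2 lower and 20 higher). These calls were led by a peak assigned to Prdm1 from 60516 bp away (1.75 ± 0.19, limma adjusted p = 0.00618). The summed signal of the plasma cell list was 20773 to 21715 in quiescent and 16825 to 19076 in proliferating samples. For myeloid markers 3 of 46 were lower and 4 higher (4 and 9 with the block), with sums of 11373 to 13409 against 10249 to 12650. Their smallest adjusted p was at a peak 73019 bp from Csf3r (-1.71 ± 0.29, limma adjusted p = 0.0153). Among T and NK markers 0 of 31 were lower and 2 higher (3 and 4 with the block), with the smallest adjusted p at Klrb1c (1.17 ± 0.20, adjusted p = 0.0153), and sums were 10334 to 12282 against 11162 to 11964. Erythroid markers were the list whose sums were apart in the direction of the kappa peaks, at 3226 to 3447 in quiescent against 3974 to 4377 in proliferating samples. Of their 18 tested peaks, at 3 of 7 genes, 1 was lower and 0 higher, or 5 and 1 with the block. Tfrc alone held 11 of the list's 19 peaks, so the sums rest in large part on 1 gene. The strongest peak of Tfrc, the transferrin receptor gene, was at 1060, 1137 and 1157 against 1174, 1874 and 1690 (-0.47 ± 0.17, adjusted p = 0.133), and that of Klf1, an erythroid transcription factor gene, was weak, at 42.8 ± 6.86 against 58.2 ± 12 (-0.43 ± 0.28, adjusted p = 0.387). B-cell markers had 2 of 165 lower and 3 higher (4 and 12 with the block), with the smallest adjusted p at Ebf1 (1.63 ± 0.20, adjusted p = 0.00773), and sums of 41084 to 45103 against 39195 to 43187. The part of other cells in the kappa values was not tested.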

How the data were processed

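Each of the 6 samples has 1 signal value per peak, deposited by the authors for a common peak list in mm10 coordinates, which are printed as deposited. Per the submitters' processing notes, Bowtie2, SAMtools and MACS2 were used, and per the labels' protocols each library, from a commercial kit, was sequenced in 2 runs. For versions, read counting, the transposase offset and the scaling, the sources used here give nothing. Values were tested with limma 3.58.1 (two-sided, R 4.3.3) on log2(signal + 1), with the variance trended on intensity, over the 87411 peaks above the lowest 10% by mean, with Benjamini-Hochberg adjustment. Values are mean ± SD and fold changes ± SE (n = 3 each). In simulated data over 87411 peaks, changes were planted only in peaks above the median signal, with the same dispersion for every peak. There limma recovered 62% of log2 changes of 1 and 100% of changes of 2. Recovery in weaker or more variable peaks was not simulated.

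The design named a test for raw counts, and limma was used because the signal is scaled. The value of 1 read in a sample changed smoothly with peak strength. Following it gave reads that lay within 0.1 of a whole number for 99.7% to 100% of values, for use in limma-voom as an alternative. Such reads carry counting error and also the variation between samples, as they come from the same libraries as the signal. Same-numbered samples deviated together (r = 0.43, 0.29 and 0.21, each above the preset 0.1), so the numbers were taken to pair the samples, although differently numbered pairs reached 0.22 (lowest -0.36), and the replicate block is given where it changes a call or a count by over 1.5 times.

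Segments and genes came from a RefSeq table of GRCm38.p6. A peak was at a segment with an overlap of at least 1 bp. List peaks were assigned to the overlapping or nearest protein-coding gene within 100 kb. Named peaks were all of the J, constant and enhancer part, the strongest and the largest called fall and rise of each variable step, and the smallest adjusted p of each list. Members and lists were chosen with earlier results of these data known. A few results are not reported here. Alternatives were the block, a pseudocount of 8, no filter, no trend, centring, limma-voom, shifted borders and leaving out each sample. Plots and ratios used Python 3.11.15.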

Additional observations from a re-analysis of the deposited data

How the results depend on the processing

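The count of kappa peaks called lower (37) was 76 with the replicate block, 21 without the intensity trend and 67 in limma-voom on the recovered reads scaled to totals. It lay between 0 and 52 when 1 sample was left out, where the calls over all tested peaks ran from 0 to 8241 in both directions together. The count called higher (6) was 19 with the replicate block, 3 in limma-voom on totals, 12 with median-of-ratios scaling, and between 0 and 8 when 1 sample was left out. In limma-voom on totals without quiescent sample 3, an alternative added after seeing the data, it was 1. On totals the medians of the first and the sixth step were -0.76 and -0.70. Of the 37 lower peaks, 37 were also called with the block, 36 on totals and 31 with median-of-ratios scaling. Pseudocount 8, no filter and centring gave 39, 35 and 37 lower and 7, 5 and 5 higher. The block ended no call of a named peak and added 4 calls, all given above. In this balanced design the block leaves every fold change as it was, so no direction could turn. Without the trend the named peaks at 68480569, 69701261 and 70749633 lost their calls, and without the filter 69701261 did. On totals 68480569 and 68764243 lost theirs.

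Among the named peaks, directions turned only at those that limma had not called. On totals these were the peaks at 67839045 (0.0517), 70040107 (0.0876), 70713150 (-0.61), 70713926 (-0.0421), 70724260 (-0.30) and 70730829 (-0.0518). With median-of-ratios scaling they were those at 67839045 (0.31), 68883214 (0.26), 69661900 (0.12), 70040107 (0.36), 70709090 (0.0286), 70713150 (-0.34), 70724260 (-0.026) and 70725192 (0.0951). Leaving out 1 sample gave ranges that crossed 0: -0.15 to 0.0681 at 67839045, -0.31 to 0.10 at 68883214, -0.15 to 0.0119 at 70040107, -0.23 to 0.43 at 70713150, -0.0621 to 0.38 at 70713926, -0.49 to 0.16 at 70720283, -0.22 to 0.28 at 70724260, -0.35 to 0.31 at 70725192, -0.53 to 0.36 at 70727999 and -0.43 to 0.0162 at 70751933. On recovered reads the ratio to the intronic enhancer peak turned to -0.28 at 70713150 and -0.0542 at 70724260. On totals, where the median of all peaks was -0.26, the medians of the third step (-0.17), the kappa factors (-0.08), the pre-B genes (-0.17), the B-cell (-0.03), myeloid (-0.24) and plasma cell markers (-0.0014) also turned; with median-of-ratios scaling that of the T and NK markers (0.11) did. The pre-B median turned with centring (-0.02) and without proliferating sample 1 (-0.03), and the T and NK median without quiescent sample 2 (0.08). The cause was not tested. Depth limits the weak peaks most: a typical (median) peak of proliferating sample 1 had 27 reads.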
